A study of Homo sapiens with 9 samples.

Results

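The EGFR (ErbB) family was described here through 10 genes, chosen by symbol from the 17369 genes of the deposited expression table: the receptors Egfr, Erbb2 and Erbb3, the ligands Areg, Ereg, Hbegf, Tgfa, Btc and Epgn, and the intracellular inhibitor Errfi1. All 10 had a row. Of these, 8 reached the filter on low values (at least 1 FPKM in at least 3 tumors), as did 10263 genes in all, and Tgfa and Epgn did not reach 1 FPKM in any tumor.

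The tumors were orthotopic anaplastic thyroid cancers in mice, grown from TBP3743, a cell line with a thyroid-specific activating Braf mutation and deletion of Trp53 that was derived from B6129SF1 mice. All 3 groups carried these alleles, and no group without them was present. Original cells implanted into B6129SF1 hosts gave the original group, cells adapted by 3 rounds of passage through C57BL/6 mice gave the adapted/B6129SF1 group when implanted into B6129SF1 hosts, and the same adapted cells in C57BL/6 hosts gave the adapted/B6 group, with 3 tumors in each. Per the study's methods, 100000 cells were injected into the left thyroid of female hosts 6 weeks old, and whole tumors were taken for RNA sequencing on day 14. Only 1 parental line and its adapted descendant were studied, so that a group compares cells of one origin and the tumors, not independent adaptations, are the replicates. The labels name the organism as human, but the cell line, the hosts, the gene symbols and the genome build named by the submitters are of the mouse.

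Values are FPKM (fragments scaled to transcript length and to the number of mapped fragments), which divide by transcript length, so that levels can be set side by side between genes. Absolute depth is unknown from such values. From the steps between low values, the relative depth of the tumors was estimated at 0.959 to 1.36 times that of the first original tumor. The RNA came from whole tumors, in which the cancer cells are mixed with the host's stroma and immune cells. A lower level in such samples cannot be told apart between fewer cells of a type and less RNA per cell. Nkx2-1, a thyroid transcription factor, stood at 23.5 to 44.5 FPKM in all 9 tumors. Of other thyroid markers, Foxe1 was listed at 0 in 6 of 9 tumors and Tshr was at 0.0703 FPKM at most. Pax8 was at 0.0174 to 1.61 FPKM, and Tg, the thyroglobulin gene, varied widely, from 0.0153 to 31.0 FPKM. Skeletal muscle transcripts were very unequal, with a summed level of 8 markers between 2.30 and 20324 FPKM. The adapted/B6129SF1 replicate 3 (20324) and adapted/B6 replicate 1 (4203) were the highest of these.

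ErbB receptors are tyrosine kinases that are activated when a ligand brings them together in pairs. Egfr binds the ligands considered here, of which Hbegf, Btc and Ereg also engage Erbb4. Erbb2 has no known ligand and serves as the preferred partner of the others, and Erbb3 has little kinase activity of its own and binds neuregulins. The ligands are made as membrane-bound precursors that metalloproteases, Adam17 and Adam10 foremost, release from the cell surface. The active receptors signal through adaptors to the ERK cascade, in which Braf is a kinase, and ERK activity in turn is known to induce several ligands and Errfi1, which binds the kinase domain of the receptor and blocks it.

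The receptors differed from one another in the way they varied between groups. Egfr was higher in the adapted tumors, while Erbb2 and Erbb3 stayed at similar levels in all groups. Egfr was measured at 6.18, 4.35 and 4.13 FPKM in the original tumors. In the adapted/B6129SF1 tumors the values were 19.7, 11.2 and 7.71 FPKM, and in the adapted/B6 tumors 13.7, 25.0 and 13.8 FPKM. Every one of the 6 adapted tumors lay above every original tumor, and the adapted groups overlapped each other, with the lowest adapted value in adapted/B6129SF1 replicate 3.

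The mean Egfr level was 4.89 ± 1.12 FPKM (SD, n = 3) in original, 12.9 ± 6.18 in adapted/B6129SF1 (n = 3) and 17.5 ± 6.51 in adapted/B6 (n = 3). Differences were tested with limma on log2(FPKM + 1) over all genes that passed the filter, with Benjamini-Hochberg adjustment, and an adjusted p under 0.05 is called past the test. The scale understates the change of genes at low levels. Adapted/B6 exceeded original by 1.62 ± 0.33 (log2 difference ± SE, adjusted p = 0.0261), a ratio of mean FPKM of 3.59. Adapted/B6129SF1 exceeded original by 1.16 ± 0.33 (adjusted p = 0.0677), a ratio of 2.64, which was not past the test. For the mean of both adapted groups against original the difference was 1.39 ± 0.29 (adjusted p = 0.0183). This comparison uses the same original tumors as the others and is no separate evidence. Between the adapted groups, which share their cells but not their host strain, the difference was 0.45 (95% interval -0.30 to 1.21, adjusted p = 0.869). Per the study's methods the mice of each strain came from a different supplier, so that strain and supplier cannot be told apart.

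The Egfr call in adapted/B6 rested on few tumors. It was lost when original replicate 1 (adjusted p = 0.0527), replicate 2 (0.0735) or replicate 3 (0.0920), or adapted/B6 replicate 2 (0.0693) or replicate 3 (0.0701) was left out, with log2 differences of 1.34 to 1.77 in these fits. In the joint comparison it was lost without original replicate 2 (adjusted p = 0.0613) or replicate 3 (0.0803). In adapted/B6129SF1 it was gained without replicate 3 of that group, the tumor with the most muscle transcripts (log2 difference 1.45, adjusted p = 0.0419).

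**Figure D1:**
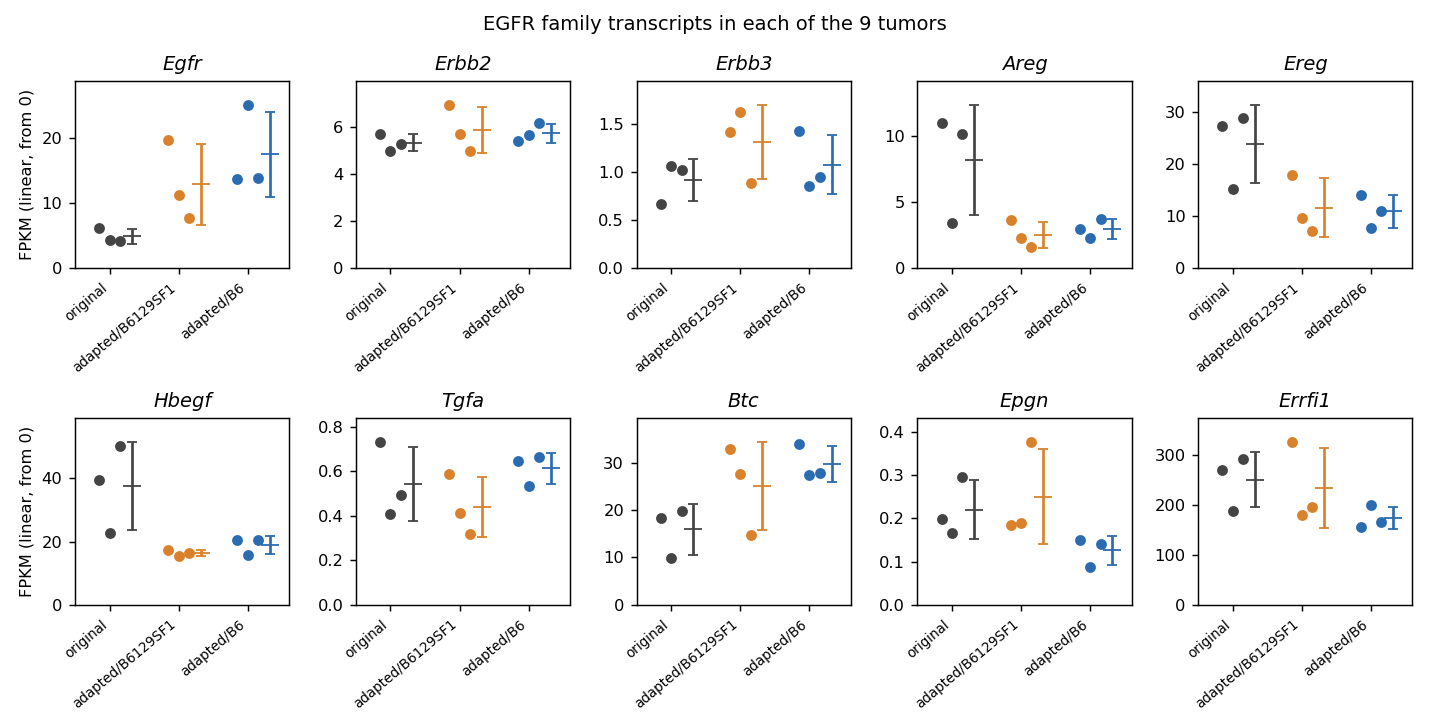
FPKM of the 10 genes in each of the 9 tumors (points), with the mean (bar) and SD of each group of 3; each panel has its own linear axis from 0. Egfr lies higher in all 6 adapted tumors than in the 3 original tumors, Hbegf lies lower in all 6, and Erbb2 spans 4.99 to 6.92 FPKM over all 9 tumors.

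Erbb2, the preferred partner in receptor pairs, was the steadiest member, at 5.71, 4.99 and 5.26 FPKM in original, 6.92, 5.69 and 4.99 FPKM in adapted/B6129SF1, and 5.39, 5.66 and 6.18 FPKM in adapted/B6. The groups overlapped in every comparison. The log2 difference was 0.11 (95% interval -0.17 to 0.40) for adapted/B6129SF1 and 0.09 (-0.19 to 0.38) for adapted/B6 against original, with adjusted p of 0.605 and 0.702 from limma. Erbb3, which pairs with the other receptors on binding neuregulin, was near the filter limit in all tumors, at 0.662 to 1.05 FPKM in original, 0.887 to 1.62 in adapted/B6129SF1 and 0.852 to 1.42 in adapted/B6. Its groups also overlapped, with differences of 0.27 (-0.17 to 0.70) and 0.11 (-0.32 to 0.55).

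The balance between receptors therefore differed between the groups. In original tumors the Egfr level was 1.08, 0.872 and 0.785 times that of Erbb2, that is, both transcripts were about equally abundant per length. In adapted/B6129SF1 this ratio was 2.85, 1.97 and 1.54, and in adapted/B6 2.55, 4.43 and 2.23. Of the summed FPKM of the 3 receptors, Egfr made up 39.7% to 49.2% in original, 56.7% to 70.3% in adapted/B6129SF1 and 65.9% to 79.4% in adapted/B6. These ratios and shares were chosen after the values were seen and are given as a description without a test.

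Among the ligands, Hbegf, Ereg and Areg were lower in the adapted tumors on average, whereas Btc was higher. Hbegf, the heparin-binding ligand, was the most abundant ligand of the original tumors, at 39.5, 22.7 and 50.4 FPKM. It was measured at 17.5, 15.5 and 16.5 FPKM in adapted/B6129SF1 and at 20.6, 15.8 and 20.4 FPKM in adapted/B6. All 6 adapted tumors were below the lowest original tumor, and the spread within the adapted groups (SD 1.00 and 2.72) was smaller than that within original (SD 13.9).

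In adapted/B6129SF1, Hbegf fell by 1.07 ± 0.25 (log2) (adjusted p = 0.0354 from limma). In adapted/B6 the log2 difference was -0.89 ± 0.25, with an adjusted p of 0.0680, which was not past the test. In both adapted groups together it fell by 0.98 ± 0.22 (adjusted p = 0.0233). Between the adapted groups the difference was 0.18 (95% interval -0.39 to 0.75). The call in adapted/B6129SF1 was kept when original replicate 2 or adapted/B6 replicate 2 was left out and lost when any of the other 7 tumors was, with adjusted p from 0.0533 (without adapted/B6 replicate 1) to 0.112 (without original replicate 1). The joint call was lost without original replicate 1 (adjusted p = 0.0931) or replicate 3 (0.0827), and a call in adapted/B6 was gained without original replicate 2 (log2 difference -1.20, adjusted p = 0.0127).

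Areg (amphiregulin), a low-affinity ligand of Egfr, was measured at 10.96, 3.42 and 10.1 FPKM in original. The values were 3.62, 2.27 and 1.63 FPKM in adapted/B6129SF1 and 2.92, 2.25 and 3.70 FPKM in adapted/B6. Original replicate 2 lay within the range of the adapted tumors, and the other two original tumors lay above all of them. The log2 differences were -1.30 ± 0.38 in adapted/B6129SF1 and -1.10 ± 0.38 in adapted/B6 (adjusted p = 0.0717 and 0.121 from limma). Over both adapted groups Areg fell by 1.20 ± 0.33 (adjusted p = 0.0481).

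This call for Areg was close to the threshold. It was lost without original replicate 1 (adjusted p = 0.175) or replicate 3 (0.170), adapted/B6129SF1 replicate 2 (0.0817) or replicate 3 (0.0711), or any adapted/B6 tumor (0.0766 to 0.0866). Without original replicate 2 the separate differences passed as well, at -1.76 in adapted/B6129SF1 (adjusted p = 0.0146) and -1.56 in adapted/B6 (adjusted p = 0.0201).

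Ereg (epiregulin), which binds Egfr and Erbb4, was measured at 27.2, 15.1 and 28.8 FPKM in original, at 17.9, 9.64 and 7.11 FPKM in adapted/B6129SF1 and at 14.01, 7.70 and 10.99 FPKM in adapted/B6. The adapted/B6 tumors lay below all original tumors, and adapted/B6129SF1 replicate 1 lay within their range. The log2 differences were -1.02 ± 0.35 and -1.04 ± 0.35 (adjusted p = 0.111 and 0.116 from limma), so that neither was past the test. The joint difference was -1.03 ± 0.31 (adjusted p = 0.0615). It passed without adapted/B6129SF1 replicate 1 (adjusted p = 0.0243) or original replicate 2 (0.0481), and the difference in adapted/B6129SF1 passed without adapted/B6129SF1 replicate 1 (-1.36, adjusted p = 0.0470).

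Btc (betacellulin), a ligand of Egfr and Erbb4, varied in the other direction. It was measured at 18.3, 9.84 and 19.7 FPKM in original, at 32.8, 27.6 and 14.8 FPKM in adapted/B6129SF1 and at 34.0, 27.4 and 27.8 FPKM in adapted/B6. The adapted/B6 tumors lay above all original tumors, and adapted/B6129SF1 replicate 3, the muscle-rich tumor, lay within the original range. The log2 differences of 0.60 ± 0.32 and 0.91 ± 0.32 were not past the test (adjusted p = 0.261 and 0.124 from limma), and neither was the joint difference of 0.76 ± 0.27 (adjusted p = 0.107). Without adapted/B6129SF1 replicate 3 the joint difference was 0.92 (adjusted p = 0.0329).

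The remaining ligands were scarce. Tgfa, a high-affinity ligand of Egfr, ranged from 0.409 to 0.732 FPKM in original, from 0.320 to 0.588 in adapted/B6129SF1 and from 0.535 to 0.663 in adapted/B6, with overlap in every comparison. Epgn (epigen) ranged from 0.165 to 0.297, from 0.184 to 0.377 and from 0.0879 to 0.150 FPKM. The adapted/B6 values of Epgn lay below those of both other groups (exact two-sided permutation p = 0.1 in each, the smallest that 3 tumors against 3 can give). At such levels few reads lie behind each value.

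The ligand transcripts differed in make-up more than in sum. The summed FPKM of the 6 ligands was 51.7 to 110 in original, 40.7 to 72.6 in adapted/B6129SF1 and 53.8 to 72.4 in adapted/B6, so that the ranges overlapped. Btc made up 18.6% ± 0.59 of that sum in original (SD, n = 3), 43.7% ± 6.77 in adapted/B6129SF1 (n = 3) and 47.2% ± 3.64 in adapted/B6 (n = 3). The lowest share in an adapted tumor, 36.3%, was above the highest in original, 19.1%. Hbegf had shares of 40.8% to 45.9% in original, 24.1% to 40.5% in adapted/B6129SF1 and 28.5% to 31.99% in adapted/B6. Ereg had shares of 26.2% to 29.3%, 17.3% to 24.6% and 14.3% to 19.3%, and Areg of 6.61% to 11.3%, 3.99% to 4.98% and 4.04% to 5.81%.

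**Figure D2:**
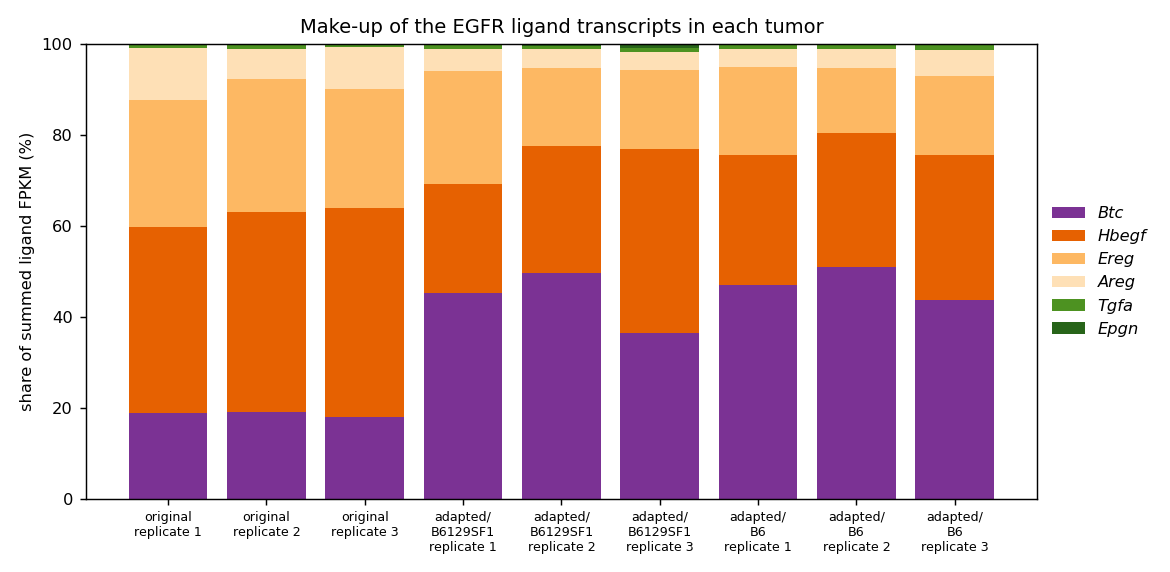
Share of each of the 6 ligands in their summed FPKM (%, stacked bars from 0) in each of the 9 tumors. Btc takes 18.0% to 19.1% of the ligand sum in the original tumors and 36.3% to 50.9% in the adapted tumors.

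The ratio of Btc to Ereg held a narrow range within original, at 0.674, 0.651 and 0.685, although replicate 2 of that group had the lowest level of both genes. The ratio was 1.83, 2.86 and 2.08 in adapted/B6129SF1 and 2.43, 3.56 and 2.53 in adapted/B6. The ratio of Btc to Hbegf was 0.464, 0.434 and 0.392 in original, 1.88, 1.78 and 0.897 in adapted/B6129SF1 and 1.65, 1.73 and 1.37 in adapted/B6. In both ratios every adapted tumor was above every original tumor. A factor that scales all genes of a tumor alike cancels in these ratios and shares. They were chosen after the values had been seen, so that they are given without a test.

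Errfi1 (also called Mig6), the feedback inhibitor of the receptors, was by far the most abundant member, with a mean of 220 ± 61.0 FPKM over the 9 tumors, above the mean level of 97.0% of the genes tested. It was measured at 271, 189 and 294 FPKM in original, at 327, 181 and 196 FPKM in adapted/B6129SF1 and at 156, 200 and 167 FPKM in adapted/B6. The groups overlapped in every comparison. The log2 difference was -0.12 (95% interval -0.68 to 0.44) in adapted/B6129SF1 and -0.51 (-1.07 to 0.05) in adapted/B6 against original, with adjusted p of 0.781 and 0.246 from limma. Relative to Egfr, the level of Errfi1 was 43.9, 43.3 and 71.1 times as high in original, 16.6, 16.2 and 25.4 times in adapted/B6129SF1 and 11.3, 7.98 and 12.1 times in adapted/B6.

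Over all tumors the mean levels per length ran from Errfi1 (220 FPKM) through Hbegf (24.3 ± 12.2), Btc (23.6 ± 8.31), Ereg (15.4 ± 7.97), Egfr (11.8 ± 7.15), Erbb2 (5.64 ± 0.61), Areg (4.55 ± 3.48) and Erbb3 (1.10 ± 0.32) to Tgfa (0.533 ± 0.136) and Epgn (0.199 ± 0.0871; SD over 9 tumors). Of neighbours in this order, Hbegf and Btc, and Ereg and Egfr, each lay within 1 SD of the other. The order depended on the group: Hbegf was the highest ligand in the 3 original tumors and in adapted/B6129SF1 replicate 3, and Btc was the highest in the other 5 adapted tumors.

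Counted over the 8 members tested, 1 passed in adapted/B6129SF1 against original (Hbegf, lower), against 8.28% of all genes tested. In adapted/B6 against original 1 passed (Egfr, higher), against 6.75% of all genes. Between adapted/B6 and adapted/B6129SF1 0 passed by limma (0 also at an unadjusted p under 0.05), against 0.0292% of all genes. With both adapted groups together 3 passed (Egfr higher, Areg and Hbegf lower), against 11.9% of all genes. The groups did not overlap for 2 members in adapted/B6129SF1 against original (29.6% of all genes), for 4 in adapted/B6 against original (32.8%), for 0 between the adapted groups (11.7%) and for 2 in the joint comparison (19.2%). A single member past the test among 8 is close to what these shares give for all genes, and the 3 of the joint comparison lie above it. As the members were chosen with earlier results of these data known, these counts are a description and no independent support. The median log2 difference of all genes tested was within 0.03 of 0 in every comparison.

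**Figure D3:**
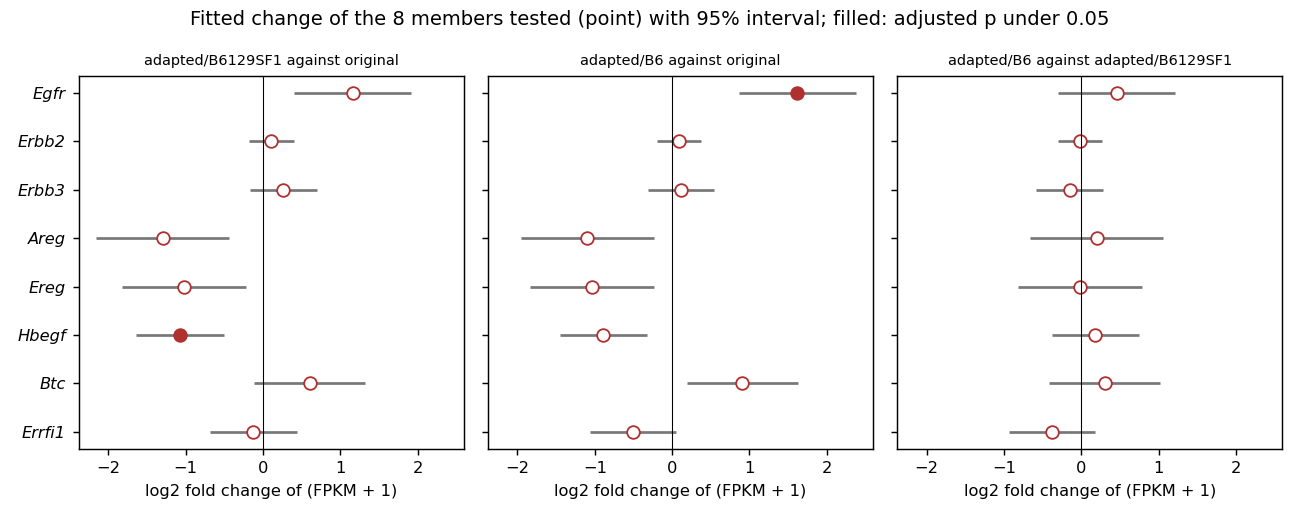
Log2 difference of (FPKM + 1) with its 95% interval from limma for the 8 members tested, in the 3 comparisons between single groups; filled points have an adjusted p under 0.05. Against original, Egfr and Btc lie to the right of 0 and Hbegf, Ereg and Areg to the left in both adapted groups, and between adapted/B6 and adapted/B6129SF1 all 8 intervals include 0.

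Genes that were most like the members that passed are given as a description over the 9 tumors, by Pearson's r of log2(FPKM + 1). Because all 9 tumors fall into groups, a gene that differs between groups in the same way will have a high r. The nearest to Egfr were Csrnp2 (r = 0.977), Rap1gap (0.977), Camk1d (0.969), Rfx5 (0.964) and Dchs1 (0.963). Rap1gap, a GTPase-activating protein for Rap1, was measured at 5.48 to 6.22 FPKM in original, 9.81 to 26.5 in adapted/B6129SF1 and 14.9 to 25.0 in adapted/B6. The nearest to Hbegf were Epha2 (0.992), Iffo2 (0.981), Pvr (0.976), Mapk1ip1l (0.973) and Plxna2 (0.972), and those to Areg were Ttc37 (0.983), Iffo2 (0.974), Itprip (0.972), Tmem184b (0.969) and Ppfia1 (0.967). Epha2 is a receptor tyrosine kinase of the ephrin family, and Iffo2 was near both ligands.

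The other receptor and ligands of the family were low. Erbb4 was listed at 0 in 7 of 9 tumors and reached 0.0238 FPKM at most, Nrg3 was listed at 0 in all 9, and Nrg2 ranged from 0 to 0.734 FPKM. Egf was at 0.194 to 0.576 FPKM in original and at 0.432 to 2.55 FPKM in the adapted tumors, with the highest value in adapted/B6129SF1 replicate 3. Nrg1, a ligand of Erbb3 and Erbb4, was at 1.86 to 4.12 FPKM in original, 1.25 to 2.15 in adapted/B6129SF1 and 1.58 to 3.10 in adapted/B6, and Nrg4 was at 0.698 to 1.58 FPKM over all tumors. Neither Nrg1 (joint log2 difference -0.52, adjusted p = 0.172) nor Nrg4 (0.18, 0.470) passed in any comparison by limma.

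None of the 10 tested genes of ligand shedding passed in any of the 4 comparisons. Of all genes tested, 8.28% passed in adapted/B6129SF1, 6.75% in adapted/B6, 0.0292% between the adapted groups and 11.9% in the joint comparison. The sheddases Adam10, at 47.0 to 55.6 FPKM, and Adam17, at 20.9 to 32.9 FPKM, were present in all 9 tumors, with joint log2 differences of -0.13 and 0.19 (adjusted p = 0.282 and 0.358 from limma).

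Among 17 adaptors and signal transducers, 1 was higher and 2 were lower in adapted/B6129SF1, and 1 was higher and 1 lower in adapted/B6. In the joint comparison 1 was higher and 4 were lower. Of all genes tested, 8.28%, 6.75% and 11.9% passed in the same comparisons, and no set test was run. The joint median log2 difference of the list was -0.24 beside -0.03 over all genes tested. Vav2, an exchange factor that binds active Egfr, rose from 5.56 to 6.06 FPKM in original to 8.48 to 12.5 in adapted/B6129SF1 and 8.34 to 9.68 in adapted/B6, with log2 differences of 0.69 and 0.54 (adjusted p = 0.0206 and 0.0499 from limma). Sos1, the Ras exchange factor, was at 7.34 to 7.86 FPKM in original and at 4.53 to 6.05 FPKM in the adapted tumors, and Gab1, a docking protein, was at 6.86 to 7.59 and 3.22 to 5.59 FPKM. Both fell in the joint comparison, by 0.43 (log2, adjusted p = 0.0253) and 0.56 (adjusted p = 0.0434).

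Nck1, an adaptor to the cytoskeleton, was at 22.4 to 24.1 FPKM in original, 19.5 to 19.9 in adapted/B6129SF1 and 15.9 to 17.1 in adapted/B6, and fell by 0.49 in adapted/B6 (adjusted p = 0.00817 from limma). Eps8, a receptor substrate that acts on actin, was at 62.9 to 77.1, 34.8 to 50.5 and 51.0 to 62.9 FPKM in the same order, and fell by 0.68 in adapted/B6129SF1 (adjusted p = 0.0291). For Nck1 the adapted groups did not overlap each other (log2 difference -0.26, adjusted p = 0.602), nor did they for Eps8 (0.41, adjusted p = 0.745), and neither difference was past the test.

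Among 17 genes of receptor down-regulation and inhibition, 0 were higher and 2 were lower in adapted/B6129SF1, in adapted/B6 and in the joint comparison. Of all genes tested, 8.28%, 6.75% and 11.9% passed in the same order. The joint median of the list was -0.11. Lrig1, a transmembrane protein known to promote degradation of ErbB receptors, was measured at 30.4, 24.6 and 26.7 FPKM in original, at 16.4, 17.5 and 17.8 FPKM in adapted/B6129SF1 and at 16.8, 18.5 and 20.4 FPKM in adapted/B6. All 6 adapted tumors lay below the lowest original tumor. Lrig1 fell by 0.63 ± 0.11 in adapted/B6129SF1 (log2 ± SE, adjusted p = 0.0129 by limma), by 0.53 ± 0.11 in adapted/B6 (adjusted p = 0.0243) and by 0.58 ± 0.09 in the joint comparison (adjusted p = 0.00690), which held when any 1 tumor was left out.

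Its relative Lrig3 was at 2.42 to 2.88 FPKM in original, 1.09 to 1.62 in adapted/B6129SF1 and 1.34 to 1.65 in adapted/B6, again without overlap. The log2 difference of Lrig3 was -0.60 in adapted/B6129SF1 (adjusted p = 0.0371 from limma) and -0.55 in adapted/B6 (adjusted p = 0.0542). Spry4, an inhibitor of signalling from receptor tyrosine kinases to ERK, was at 20.8, 14.98 and 28.6 FPKM in original, 20.0, 12.9 and 13.3 in adapted/B6129SF1 and 11.4, 7.70 and 5.92 in adapted/B6. It fell by 1.26 ± 0.28 in adapted/B6 (adjusted p = 0.0339), and its adapted/B6 values were below all adapted/B6129SF1 values as well (log2 difference -0.83, adjusted p = 0.705).

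Of 15 transcripts known to depend on ERK, 1 was higher in adapted/B6129SF1 (Egr2), 0 passed in adapted/B6 and 1 was lower jointly (Fosl1). The shares of all genes tested were 8.28%, 6.75% and 11.9% in the same order. The joint median of the list was -0.04. Egr2, an immediate-early transcription factor, had means of 1.40 FPKM in original, 5.06 in adapted/B6129SF1 and 2.86 in adapted/B6. The log2 difference was 1.31 in adapted/B6129SF1 (adjusted p = 0.0470 from limma) and 0.69 in adapted/B6 (adjusted p = 0.244). The adapted/B6 values overlapped original, and adapted/B6129SF1 replicate 1 was the highest tumor at 7.99 FPKM. Fosl1, an AP-1 subunit, was at 81.7, 41.4 and 74.4 FPKM in original, at 29.1 to 37.8 in adapted/B6129SF1 and at 32.04 to 45.0 in adapted/B6, and fell by 0.80 in the joint comparison (adjusted p = 0.0454). The calls of Egr2 and of Sos1 in adapted/B6129SF1 were lost when any 1 of the 9 tumors was left out (adjusted p up to 0.125 and 0.118), and that of Fosl1 when any tumor but original replicate 2 was (up to 0.164). Those of Lrig1 in adapted/B6129SF1 and of Vav2 in the joint comparison were lost without original replicate 3 (adjusted p = 0.0522 and 0.0539), and that of Nck1 in adapted/B6 without adapted/B6 replicate 3 (0.0518).

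Most other calls of these lists also rested on single tumors. Vav2 lost its call in adapted/B6129SF1 without any 1 original tumor or replicate 2 of that group (adjusted p up to 0.0711 by limma), and in adapted/B6 without any 1 tumor except adapted/B6129SF1 replicates 1 and 3 (up to 0.156). Lrig1 lost its call in adapted/B6 without original replicate 1 or 3 or any adapted/B6 tumor (up to 0.0817). Lrig3 kept its call in adapted/B6129SF1 only without replicate 3 of that group or adapted/B6 replicate 2 (up to 0.123 in the other fits). Spry4 lost its call without original replicate 1 or 3 or adapted/B6 replicate 2 or 3 (up to 0.129), and Eps8 in adapted/B6129SF1 without original replicate 1 or 3 or replicate 2 or 3 of that group (up to 0.102). In the joint comparison Sos1 lost its call without original replicate 1 or 3 or adapted/B6 replicate 3 (up to 0.0960), and Lrig3 without the same tumors (up to 0.0944). Nck1 lost its joint call without original replicate 3 (0.0596), Gab1 kept its call only without adapted/B6129SF1 replicate 2 or 3 (up to 0.141 in the other fits), and Eps8 only without adapted/B6129SF1 replicate 1 or 3 (up to 0.168).

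**Figure D4:**
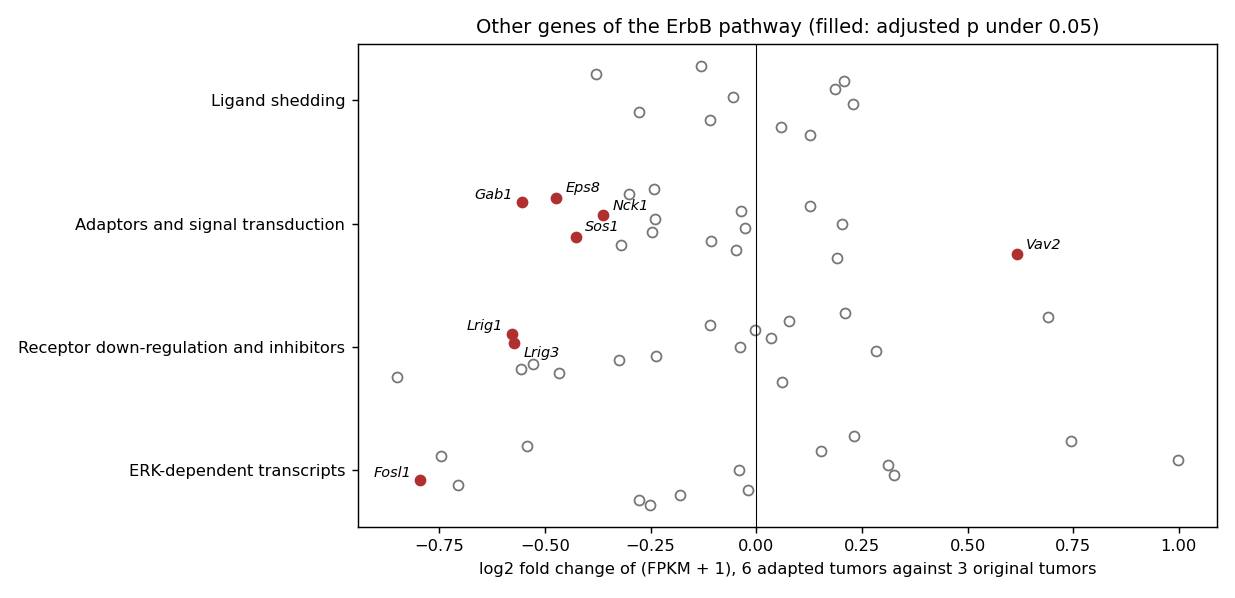
Log2 difference of (FPKM + 1) of the 6 adapted against the 3 original tumors for the tested genes of 4 lists of the ErbB pathway (1 point per gene; the vertical offset within a list only separates points); filled points are named and have an adjusted p under 0.05. Vav2 (0.62) is the only gene named to the right of 0, and Gab1, Eps8, Nck1, Sos1, Lrig1, Lrig3 and Fosl1 lie to the left.

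Markers of cell types moved with the groups to different degrees. The summed level of 8 epithelial markers was 578 to 970 FPKM in original, 265 to 548 in adapted/B6129SF1 and 371 to 425 in adapted/B6, without overlap between original and adapted tumors. This sum was carried by the keratins Krt8 and Krt18, and other markers of the list did not fall alike. Cdh1 was at 1.82 to 4.01 FPKM in original, 1.03 to 2.11 in adapted/B6129SF1 and 2.80 to 4.48 in adapted/B6. Cldn4 was at 0.0531 to 0.616, 0.0251 to 0.802 and 0.307 to 1.56 FPKM in the same order. Epcam was at 0.0949 to 2.49 FPKM over all tumors. For Cdh1, Cldn4 and Epcam both adapted groups overlapped original. Krt8 was at 363 to 615 FPKM in original, 153 to 283 in adapted/B6129SF1 and 221 to 241 in adapted/B6. It fell by 1.22 in the joint comparison (log2, adjusted p = 0.0104 from limma). Krt18 was at 207 to 390, 110 to 256 and 138 to 195 FPKM in the same order, with overlap between original and adapted/B6129SF1. Original replicate 2 had the lowest Krt8 and Krt18 of its group, as it had the lowest Areg, Ereg, Hbegf, Btc and Errfi1. In a limma fit with the level of Krt8 and Krt18 as a covariate, chosen after seeing the data, no member was past the test. The joint log2 differences were 1.70 for Egfr, -0.58 for Hbegf and -0.41 for Areg (adjusted p = 0.195, 0.489 and 0.740 from limma). This loss was not particular to the members. In that fit 0.0195% of all genes tested passed in adapted/B6129SF1, 0.935% in adapted/B6 and 0.448% jointly, beside 8.28%, 6.75% and 11.9% without the covariate. As the covariate itself differs between the groups, what moves with keratin level and what moves with adaptation cannot be told apart in these tumors.

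Among the other lists, the 8 markers of keratinocytes, a rich source of Egfr ligands, summed to 6.69 FPKM at most, with Krt5 and Krt14 listed at 0 in original and at 0.420 FPKM or less elsewhere. The 8 fibroblast markers summed to 914 to 1201, 1007 to 1516 and 1047 to 1267 FPKM in original, adapted/B6129SF1 and adapted/B6, and the 7 macrophage and monocyte markers with a row to 933 to 1289, 1373 to 1709 and 777 to 1756 FPKM. The 4 T cell markers with a row summed to 1.75 to 2.72, 2.58 to 13.5 and 8.89 to 13.5 FPKM. The 5 markers of Schwann cells and nerve with a row summed to 6.28 to 8.79 FPKM in original and 10.7 to 14.98 FPKM in the adapted tumors, without overlap, while the defining Sox10 was at 0 in 6 of 9 tumors. Mast cell markers summed to 12.9 to 24.3, 21.6 to 96.9 and 9.70 to 18.9 FPKM. Neutrophil markers summed to 93.9 to 168, 78.6 to 385 and 72.9 to 229 FPKM, and endothelial markers to 59.2 to 78.6, 62.2 to 90.5 and 71.9 to 88.3 FPKM. The neutrophil sum was carried by Mmp9, at 367 FPKM in adapted/B6129SF1 replicate 1, and other markers of that list did not move alike. In adapted/B6129SF1, Cxcr2 lay below all original tumors, Csf3r lay above them, and S100a9 was lower on average with overlap. The part of all these cell types in the levels of the members was not tested. Without both muscle-rich tumors, the joint difference of Egfr was past the test and those of Hbegf (-1.01, adjusted p = 0.0525) and Areg (-1.10, 0.107) were not.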

How the data were processed

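Whole-tumor RNA libraries (TruSeq, HiSeq2000, paired-end) of 9 tumors were used, grouped by the labels. Per the study's methods and the submitters' notes, the authors checked reads with FastQC, aligned them with HISAT2 to mm10 and made FPKM values with Cuffnorm, and the deposited table holds 1 FPKM column per tumor. The gene annotation and the Cuffnorm version were not given in the sources used here, and the authors' own Cuffdiff comparisons were not used. Here, log2(FPKM + 1) was computed from the deposited FPKM, and the 10263 genes that reached 1 FPKM in 3 or more tumors were fitted with limma 3.58.1 in R 4.3.3, with 3 group means in one model, a mean-variance trend and Benjamini-Hochberg adjustment over all genes tested. The script was tested on simulated data. Genes outside the members were named by list: those past the test, at most 6 per list and comparison, any further ErbB receptor or ligand, and the 5 genes most like each member past the test. Members and lists were chosen with earlier results of these data known. The labels do not say whether tumors came from separate cages or batches, so p-values measure the spread between these tumors. Same-numbered tumors deviated together with correlations from -0.388 to 0.614, so numbers were not taken as pairs. At most 0.0487% of genes had equal values in any 2 tumors. Alternatives covered scaling, filters, pseudocount, samples, blocks and covariates. Sequences and coordinates were not used here.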

Additional observations from a re-analysis of the deposited data

How the results depend on the processing

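Egfr and Btc stayed above, and Hbegf, Areg and Ereg below, original in every alternative run, with log2 differences of 1.34 to 1.91 for Egfr in adapted/B6 and -1.38 to -0.65 for Hbegf in adapted/B6129SF1. The number of members past the test made its larger moves as follows, with the share of all genes tested in brackets. In adapted/B6129SF1 against original (1 as reported, 8.28%) it was 0 with no filter on low values (4.97%) and 0 with only the groups compared (4.37%). It was 2 with skeletal muscle as a covariate (Egfr and Hbegf, 5.18%). With Krt8 and Krt18 as a covariate it was 0 (0.0195%), and 0 to 2 when 1 tumor was left out (2.19% to 7.87%). In adapted/B6 against original (1 as reported, 6.75%) it was 0 with the keratin covariate (0.935%) and 0 to 2 with 1 tumor left out (1.94% to 7.78%). In the joint comparison (3 as reported, 11.9%) it was 1 without both muscle-rich tumors (Egfr, 8.26%). There it was 0 with the keratin covariate (0.448%) and 0 to 4 with 1 tumor left out (4.51% to 11.3%). Between the adapted groups it was 0 throughout (at most 0.0585%). By gene, over the alternatives in which it was tested, Hbegf passed in adapted/B6129SF1 in 9 of 20 and Egfr in 3 of 20. In adapted/B6, Egfr passed in 14 of 20 and Hbegf in 1 of 20. Jointly, Egfr passed in 16 of 19, Hbegf in 15 of 19 and Areg in 6 of 18. The keratin covariate and the omission of both muscle-rich tumors were chosen after seeing the data, as were all alternatives for the pathway lists and for overlap of groups.

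Of the other genes of the ErbB pathway, 6 were past the test in adapted/B6129SF1 as reported (8.28% of all genes tested). The number was 1 with only the groups compared (4.37%) and 3 with the replicate block (4.33%). It was 1 with a log2 change above 1 required as well (3.22%) and 2 without both muscle-rich tumors (4.599%). It was 0 with the keratin covariate (0.0195%) and 0 to 4 with 1 tumor left out (2.19% to 7.87%). In adapted/B6 the number was 4 as reported (6.75%), 2 with the replicate block (3.78%) and 1 with the larger change required (3.09%). It was 2 without both muscle-rich tumors (5.22%), 0 with the keratin covariate (0.935%) and 0 to 7 with 1 tumor left out (1.94% to 7.78%). In the joint comparison it was 8 as reported (11.9%), 5 with no filter on low values (7.58%) and 4 with the replicate block (7.73%). It was 0 with the larger change required (3.39%), 0 with the keratin covariate (0.448%) and 1 to 9 with 1 tumor left out (4.51% to 11.3%). With 1 tumor left out, members without overlap numbered 2 to 4 in adapted/B6129SF1, 4 to 6 in adapted/B6, 0 to 2 between the adapted groups and 2 to 4 in the joint comparison. Leaving out a tumor can remove overlap but never create it, so that these counts could not fall and are no check. The share of all genes without overlap was not computed for these smaller groups.

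In the fit with a replicate block, 1, 1, 0 and 3 members passed in adapted/B6129SF1, adapted/B6, between the adapted groups and jointly. Of all genes tested, 4.33%, 3.78%, 0% and 7.73% passed in the same order. Jointly Areg was lost (adjusted p = 0.0501) and Ereg gained (0.0404), and no other member's call changed.

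Differences that were not past the test changed sign in some alternatives. Errfi1 in adapted/B6129SF1 was 0.0015 without original replicate 3, 0.0362 without adapted/B6129SF1 replicate 2 and 0.0473 with the keratin covariate, and -0.387 to 0.0362 over the fits with 1 tumor left out. Erbb3 was -0.0537 in adapted/B6 and -0.0126 jointly under quantile normalization, and -0.0022 to 0.191 in adapted/B6 with 1 tumor left out (-0.0022 also without both muscle-rich tumors). Between the adapted groups, Erbb2 was 0.0245 under quantile normalization and -0.112 to 0.0889 with 1 tumor left out. Ereg was 0.0165 under quantile normalization, 0.0089 with the muscle covariate and -0.288 to 0.322 with 1 tumor left out. Btc was -0.0230 to 0.527 with 1 tumor left out and -0.121 without both muscle-rich tumors. The cause was not tested.

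With 3 tumors a group, exact permutation cannot go below 0.1, and without read counts the counting error of the scarce members Tgfa, Epgn and Erbb3 is unknown.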
